A study of Mus musculus with 8 samples.

Results

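Skin sampled 3 days after wounding was compared with uninjured skin in RNA that had been pulled down with tagged ribosomes. The comparison used 2 libraries of day 3 skin and 3 libraries of uninjured skin, 5 of the 8 samples of the series. All genes that passed an expression filter were compared, which was 18656 of 53700 gene identifiers in the count table. All mice, uninjured ones included, carried AdipoqCreER and R26-NuTRAP and are labelled as treated with tamoxifen. AdipoqCreER expresses, under adiponectin gene control, a Cre enzyme that tamoxifen switches on. NuTRAP is a reporter that, where the recombinase has acted, marks ribosomes with a GFP-tagged form of the ribosomal protein L10a. Wounded mice were 7 to 9 weeks old, in the resting phase of the hair cycle, and received 4 wounds through the full thickness of back skin with a 5 mm biopsy punch. The age comes from a protocol text attached to the uninjured samples too, which gives no other age for them. Anti-GFP pulldown recovered the tagged polysomes, and 20 ng of their RNA went into each library. The labels give the cell type as adipocyte and the tissue as skin. Another group, skin at 7 days after wounding (3 libraries), entered the same model, so its spread bears on the day 3 tests, and is compared with day 3 at the end. The labels do not say how many animals stand behind a library, so p-values measure only the spread between these samples.

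Dermal adipocytes lie beneath and within the skin as a lipid-storing layer. They hold triglyceride in droplets coated by perilipin, release fatty acids through the lipases ATGL and HSL, and secrete adiponectin, leptin and adipsin. In wounds, the first days bring clotting and inflammation, with neutrophils and then macrophages, before fibroblasts lay down matrix and vessels regrow. Adipocytes of wounded skin are known to release lipid and have been described as giving rise to fibroblast-like cells. The series title places its question in that transition and in PDGF signalling.

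The deposited values were raw read counts. Below, a level is given as CPM, a count scaled by library size after TMM normalization, and a difference as the log2 of day 3 over uninjured with its standard error (SE). The SE is approximate: it is the absolute log2 difference divided by the square root of edgeR's F statistic. Libraries held 5308959 to 17751689 counts, and day 3 replicate 1 was the shallowest. Transcripts of adipocytes were abundant, with Adipoq at 4908 to 5404 CPM in uninjured and 3329 and 3838 CPM in day 3 libraries. Transcripts of other cell types were present too, and those of skeletal muscle (Tnnt3, 1102 to 2410 CPM) exceeded Plin1 in uninjured libraries. In such bulk RNA, fewer cells of a type and less RNA per cell cannot be told apart. The 2 day 3 libraries differed from each other. Among genes at 20 CPM or more in either, 183 of 6882 (2.66%) were 4-fold or more apart. Pairs of uninjured libraries gave 0.619% to 1.81% and pairs of day 7 libraries 0.563% to 2.26%. The median absolute log2 difference of the day 3 pair, 0.32, was not unusual. It was 0.22 to 0.32 for uninjured pairs and 0.30 to 0.61 for day 7 pairs. The column names of the count table begin with a number that is shared within a group and differs between groups, so whatever it stands for and the groups cannot be told apart.

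Only 2 genes passed the main test between day 3 and uninjured skin, and both were higher at day 3. They were Gpihbp1, which encodes the capillary protein that carries lipoprotein lipase, and Slc5a5, the sodium-iodide symporter. The test was edgeR's quasi-likelihood test with Benjamini-Hochberg adjustment at 0.05, so the higher calls were 0.0107% of the genes tested and the lower calls 0%. At an unadjusted p under 0.05 there were 2416 genes, 1411 higher and 1005 lower. DESeq2, a count test with another estimate of spread, gave 17550 genes an adjusted p. It called 326 of them higher (1.86%) and 106 lower (0.604%). Without day 3 replicate 1 edgeR called 13 genes higher and 0 lower, and without day 3 replicate 2 it called 129 higher and 21 lower. The DESeq2 counts without those libraries were 168 higher and 10 lower, and 262 higher and 160 lower. Because few genes pass the main test, most of what follows describes levels. For it, genes are counted whose day 3 values lay outside the whole uninjured range, which held for 16.9% of tested genes above it and 17.2% below it. These shares are the background for each list count below. An exact rank-sum test of 2 libraries against 3 cannot give a two-sided p below 0.2.

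Gpihbp1 stood at 1.95, 2.57 and 1.88 CPM in uninjured libraries and at 16.7 and 21.0 CPM in day 3 libraries. The groups were well apart and the day 3 replicates close together. The rise was 8.65-fold, from 2.13 ± 0.382 CPM (SD, n = 3) to 18.8 ± 3.04 CPM (SD, n = 2), a log2 difference of 3.11 ± 0.38 (SE, edgeR adjusted p = 0.0436). At day 7 it was at 26.3, 27.3 and 13.5 CPM, still above every uninjured library. GPIHBP1 sits on capillary endothelial cells, and other endothelial markers, given below, were higher as well; their part in the result was not tested. The call was lost in each fit that left out an uninjured library (adjusted p = 0.113 to 0.343), day 7 replicate 1 (0.0727) or day 7 replicate 2 (0.118). In the deposited table the gene (ENSMUSG00000022579.11) spans chromosome 15 from 75468477 to 75471330.

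Slc5a5 had 1 read in each uninjured library (0.122, 0.0612 and 0.144 CPM) and 240 and 71 reads in the day 3 libraries (49.4 and 7.59 CPM). All wound libraries were above all uninjured ones, day 7 at 29.4, 64.3 and 42.9 CPM, but the day 3 replicates differed widely. The ratio of summed reads was 229, with an exact binomial 95% interval of 77.7 to 1120 that covers counting error only. The fitted log2 difference was 7.99 ± 0.92 (SE, edgeR adjusted p = 0.0436), a value that depends on the prior count at such low uninjured levels. The call was lost without any 1 uninjured library, or without day 7 replicate 1 or 2 (adjusted p = 0.0727 to 0.343). The symporter takes up iodide in thyroid and in lactating mammary epithelium. Between the 2 day 3 libraries, luminal epithelial markers, given below, were likewise higher in replicate 1; their part in the result was not tested. In the deposited table the gene (ENSMUSG00000000792.3) spans chromosome 8 from 71335533 to 71345401.

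**Figure D1:**
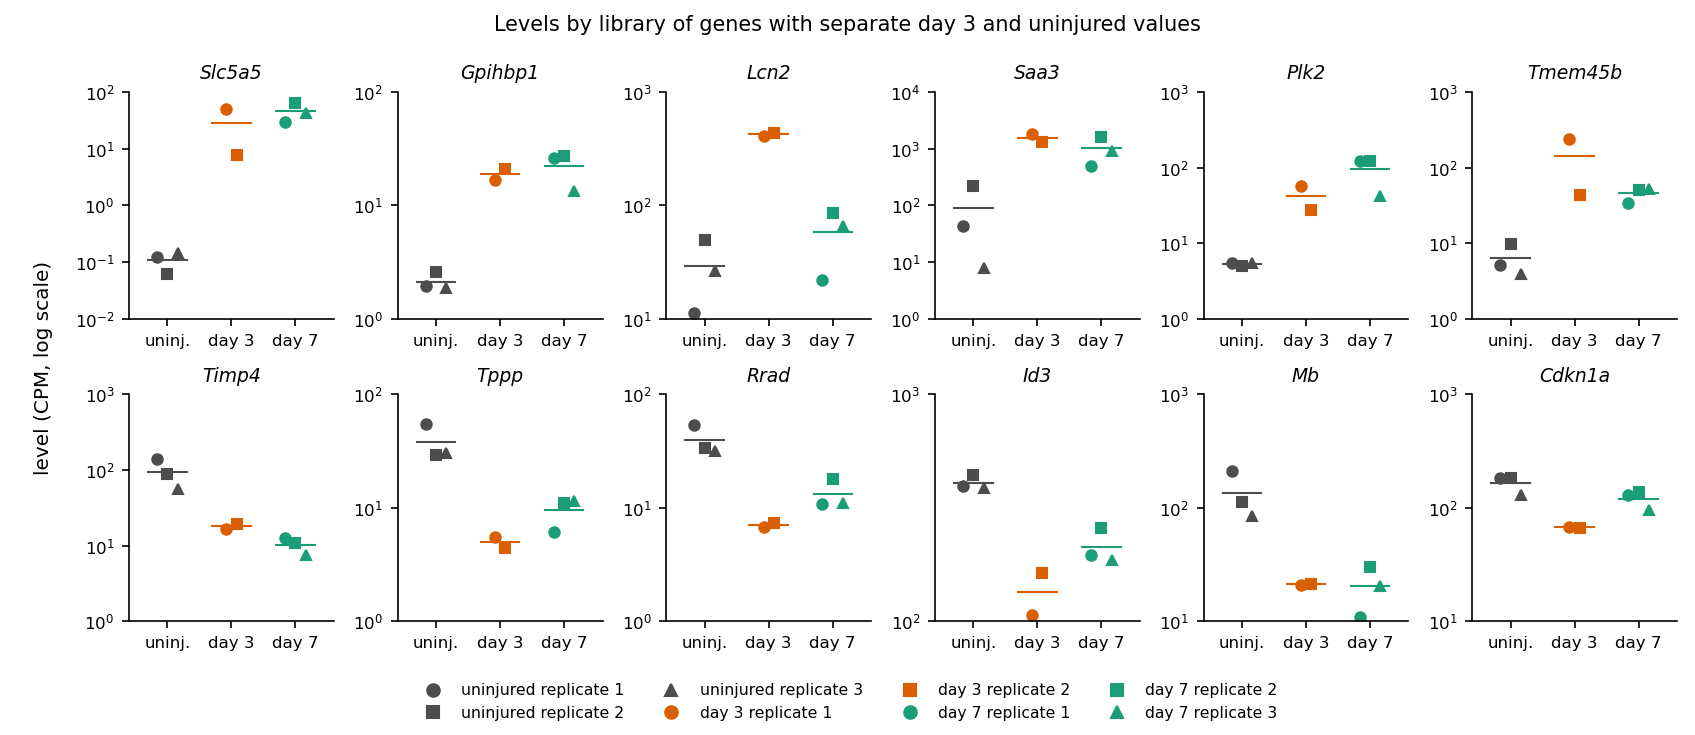
Levels (CPM, log axis) of 12 genes in each library, grouped as uninjured, day 3 and day 7; points are libraries, their shape the replicate, and bars are group means. In every panel both day 3 points lie outside the uninjured range, above it in the upper row and below it in the lower row, and Lcn2 is back to 22.1 to 85.8 CPM at day 7.

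Beyond those 2, the genes with the next smallest adjusted p had day 3 values outside the uninjured range in both libraries. Mtss1l, an actin-regulating membrane protein, was at 6.46, 10.5 and 6.93 CPM in uninjured and 48.1 and 30.8 CPM in day 3 libraries (log2 difference 2.29 ± 0.33, edgeR adjusted p = 0.0925). It was back at 8.98 to 12.6 CPM at day 7. Plk2, a stress- and growth-induced kinase, was at 5.02 to 5.49 CPM in uninjured and 56.3 and 27.4 CPM in day 3 libraries (2.97 ± 0.45, adjusted p = 0.104). Unlike Mtss1l, Plk2 remained above the uninjured range at day 7, at 42.3 to 122 CPM, which overlapped the day 3 values. Tmem45b, a membrane protein, was at 3.90 to 9.92 CPM in uninjured and 236 and 43.7 CPM in day 3 libraries (adjusted p = 0.0925), so its replicates were unequal. Cnn3, a calponin that binds actin, was at 7.81 to 9.37 CPM and then 43.4 and 24.8 CPM (adjusted p = 0.115). Lower genes were led by Tppp, a tubulin-binding protein, at 54.8, 29.3 and 30.3 CPM in uninjured and 5.55 and 4.38 CPM in day 3 libraries (-2.95 ± 0.43, adjusted p = 0.0925). Rrad, a small GTPase first described in muscle of diabetic patients, was at 31.3 to 53.3 CPM and then 6.79 and 7.38 CPM (-2.47 ± 0.37, adjusted p = 0.0967). Both stayed under the uninjured range at day 7. Some further genes were chosen after their values were seen. Timp4, the metalloproteinase inhibitor most linked to fat, was at 140, 88.0 and 56.0 CPM in uninjured, 16.7 and 19.2 CPM in day 3 and 7.43 to 12.6 CPM in day 7 libraries. Id3, a dominant-negative partner of helix-loop-helix factors, was at 387 to 442 CPM and then 107 and 163 CPM. Cdkn1a, the cell-cycle inhibitor p21, was at 181, 181 and 131 CPM and then 67.2 and 66.7 CPM. None of these 3 passed edgeR (adjusted p = 0.115, 0.116 and 0.159), while DESeq2 called each of them lower (adjusted p = 6.67e-06, 1.07e-05 and 0.00148).

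Promoters are shown for 3 of these genes, chosen after their values were seen: Slc5a5 is a called gene, and Lep and Plk2 hold a motif that few promoters have. The 250 bases before the RefSeq start site (GRCm38.p6) are printed, with a motif match in capitals. That build differs from the coordinates of the count table, which were not converted. Lep, which encodes leptin and lay below the uninjured range at day 3, has the C/EBP palindrome TTGCGCAA from 55 to 48 bases before its start (chr6:29059971-29060220, plus strand). Plk2 has the cAMP-response element TGACGTCA from 62 to 55 bases before its start (chr13:110394794-110395043, plus strand). Slc5a5 (chr8:70892758-70893007, minus strand) has none of the motifs searched.
Lep: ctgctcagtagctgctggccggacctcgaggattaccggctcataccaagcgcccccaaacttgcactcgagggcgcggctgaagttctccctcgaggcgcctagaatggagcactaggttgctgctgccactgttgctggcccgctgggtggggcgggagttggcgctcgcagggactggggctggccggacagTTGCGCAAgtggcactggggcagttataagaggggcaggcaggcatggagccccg
Plk2: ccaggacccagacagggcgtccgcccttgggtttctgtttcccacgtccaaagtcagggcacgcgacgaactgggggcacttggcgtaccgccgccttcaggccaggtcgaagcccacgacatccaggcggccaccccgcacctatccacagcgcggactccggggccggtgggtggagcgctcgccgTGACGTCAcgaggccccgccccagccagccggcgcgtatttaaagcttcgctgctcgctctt
Slc5a5: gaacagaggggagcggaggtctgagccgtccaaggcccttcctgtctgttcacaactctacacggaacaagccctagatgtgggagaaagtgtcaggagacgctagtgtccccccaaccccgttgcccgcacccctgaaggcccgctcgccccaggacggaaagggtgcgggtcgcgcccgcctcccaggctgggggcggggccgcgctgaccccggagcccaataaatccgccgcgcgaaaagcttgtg
On both strands, TTGCGCAA was in 0.164% and TGACGTCA in 1.55% of 32851 promoter windows of this length. The other motifs searched were TATAAA (12.4%), the AP-1 site TGANTCA (6.75%) and the E-box CAGCTG (13.0%). No motif of these 5 contains another, and a match describes letters and not binding. Of 166 named genes with a window, 1 held TTGCGCAA and 5 held TGACGTCA.

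Acute-phase and antimicrobial genes were among the most raised in level, without passing the test. Of 22 tested, 11 lay above and 1 below the uninjured range, beside 16.9% and 17.2% of all genes. Of these 22, 0 passed edgeR, and their median log2 difference was 1.20, against 0.02 over all genes tested. The median in each day 3 library was alike, 1.08 and 0.93. Lcn2, the iron-sequestering lipocalin that fat cells, epithelia and neutrophils secrete, was at 11.2, 49.8 and 26.3 CPM in uninjured and 411 and 433 CPM in day 3 libraries. Both day 3 values were more than any uninjured or day 7 value (log2 difference 3.85 ± 0.60, edgeR adjusted p = 0.114, DESeq2 adjusted p = 1.32e-08). Saa3, the serum amyloid A made outside the liver by fat cells and macrophages, was at 44.0, 221 and 7.80 CPM and then 1814 and 1288 CPM (4.09 ± 0.98, edgeR adjusted p = 0.181). Its uninjured libraries spanned a wide range, and day 7 libraries were at 489 to 1619 CPM. Saa1, with a near-identical copy in Saa2 that makes its count uncertain, was at 2.74 to 68.1 CPM and then 300.2 and 131 CPM. Slpi, an inhibitor of neutrophil elastase, was at 1.44 to 2.57 CPM and then 6.99 and 14.2 CPM. The abundant members Hp (haptoglobin) and Orm1 (orosomucoid) overlapped, Hp at 18189 to 28235 CPM against 11170.5 and 33769 CPM. Ltf (lactoferrin) and Wfdc2 differed between the day 3 libraries, at 122 and 80.2 CPM in replicate 1 against 0.641 and 1.60 CPM in replicate 2. Steap4, a metalloreductase of fat cells, was the member below the uninjured range, at 325 to 477 CPM and then 156 and 224 CPM.

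Adipocyte identity genes were mixed, with a median slightly below that of all genes. Their log2 differences ran from -1.14 to 1.06. Their summed level was 114751 to 143224 CPM in uninjured libraries and 146831 and 116793 CPM in day 3 replicates 1 and 2. Of 24 tested, 9 lay below and 1 above the uninjured range, beside 17.2% and 16.9% of all genes. None passed edgeR or DESeq2. The median log2 difference was -0.24, with medians of -0.09 and -0.31 in replicates 1 and 2. Adipoq, the hormone adiponectin, was at 4908, 5404 and 5401 CPM in uninjured and 3329 and 3838 CPM in day 3 libraries (-0.55 ± 0.44, edgeR adjusted p = 0.612). Plin1, the droplet coat perilipin, was at 849 to 876 CPM and then 688 and 796 CPM. Pparg, the nuclear receptor that governs adipocyte formation, was at 203 to 283 CPM and then 195 and 183 CPM (adjusted p = 0.635). These 3 were all a little below their uninjured ranges. Lep, the hormone leptin, was at 334, 190 and 122 CPM and then 88.6 and 107 CPM (-1.14 ± 0.44, adjusted p = 0.319), and at 120 to 268 CPM on day 7. The thyrotropin receptor Tshr and the activin receptor Acvr1c had log2 differences of -1.09 and -1.07. Cfd, the protease adipsin and one of the most abundant transcripts, overlapped between groups, at 46619.9 to 64849 CPM and 54072 and 38600.5 CPM. Fabp4, the fatty acid carrier, overlapped too, and Car3, carbonic anhydrase 3, was just above the uninjured range at 32816 and 33061 CPM against 24584 to 31569.7 CPM. Cidea, a droplet protein of thermogenic fat, differed between the replicates, with log2 ratios to the uninjured mean of 1.90 and -0.32. Among adipogenic transcription factors Cebpa was at 244 to 302 CPM and then 252 and 229 CPM, and Cebpb at 309.7 to 374 CPM and then 400.4 and 387 CPM.

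Genes of fat breakdown were mostly within or below the uninjured range, and most genes of fat synthesis overlapped it. Of 15 lipolysis genes, 7 lay below and 1 above, with a median of -0.24. Pnpla2, the lipase ATGL, was at 2398, 2030 and 2631 CPM and then 1568 and 1639 CPM (-0.55 ± 0.44, edgeR adjusted p = 0.610), a lower level in both replicates. Lipe, the hormone-sensitive lipase, overlapped at 592 to 779 CPM and 634 and 543 CPM. Of 20 genes of fatty acid and triglyceride synthesis, 4 lay below, 0 above and 16 overlapped. Over all genes tested, 17.2% lay below and 16.9% above. Gpam, the first acyltransferase of triglyceride synthesis, was at 167 to 358 CPM and then 127 and 101 CPM, and Elovl5, a fatty acid elongase, had a log2 difference of -1.07. Fasn ranged from 2584 to 5968 CPM in uninjured libraries and was at 3135 and 1500 CPM at day 3. This group parted between the day 3 libraries, with medians of 0.01 in replicate 1 and -0.90 in replicate 2. Genes of the respiratory chain encoded in the nucleus differed between them too, with medians of 0.73 and -0.19 over 23 genes. The 12 mitochondrially encoded genes had medians of -0.06 and 0.19.

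Cholesterol synthesis genes were lower in both day 3 libraries. Of 18 tested, 10 lay below and 0 above the uninjured range, beside 17.2% and 16.9% of all genes. The median log2 difference was -0.81, with medians of -0.76 and -0.73 in the replicates. None passed edgeR. DESeq2 called Insig1 and Hmgcs1 lower, beside 0.604% of all genes to which it gave an adjusted p. Insig1, which holds the sterol sensor in the endoplasmic reticulum, was at 229, 117 and 192 CPM in uninjured and 58.0 and 64.8 CPM in day 3 libraries (-1.54 ± 0.38, edgeR adjusted p = 0.190). Hmgcs1, the HMG-CoA synthase, was at 241, 164 and 118 CPM and then 80.4 and 76.5 CPM (-1.15 ± 0.30, adjusted p = 0.190), with 175 to 188 CPM at day 7. Both genes were tightly matched between the day 3 replicates. All 18 members had a negative log2 difference, from -1.83 to -0.25.

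Chaperones of the endoplasmic reticulum and genes of the unfolded protein response were lower by a smaller margin. Of 21 tested, 12 lay below and 1 above the uninjured range, beside 17.2% and 16.9% of all genes. None passed edgeR or DESeq2, and the median was -0.49, with -0.62 and -0.36 in the replicates. Hspa5, the chaperone BiP, was at 669.6, 332 and 611 CPM and then 250.3 and 321 CPM (-0.91 ± 0.37, edgeR adjusted p = 0.332). Xbp1, a transcription factor of this response, was at 755 to 848 CPM and then 373 and 594 CPM. Pdia3, a disulfide isomerase, was at 401 to 542 CPM and then 289 and 379 CPM. The 1 member above the range was Trib3, a pseudokinase of the stress response, at 4.91 to 8.42 CPM and then 13.0 and 13.9 CPM. Ddit3 and Atf4, which lead the stress branch that raises Trib3, overlapped. Of 16 antioxidant and metallothionein genes, 6 lay below and 1 above, with a median of -0.50. Srxn1 and Gclm, targets of the antioxidant factor NRF2, had log2 differences of -1.07 and -0.98, while Hmox1, heme oxygenase 1, was above the range at 23.0 and 52.8 CPM against 16.2 to 21.8 CPM. Gpx3, a secreted peroxidase, was at 13584 to 24214 CPM and then 23162 and 26016 CPM, and at 3495 to 7991 CPM by day 7.

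**Figure D2:**
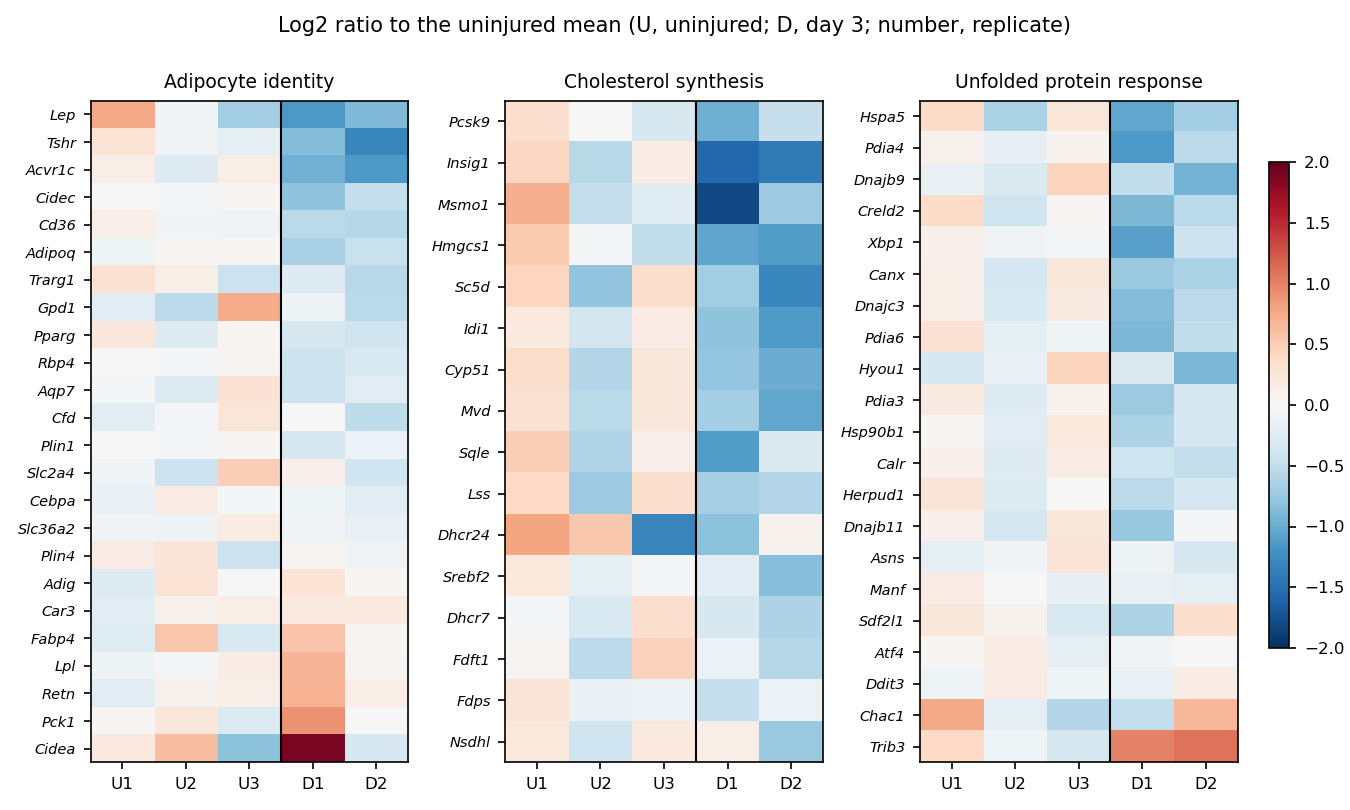
Log2 ratio of each library to the mean of the uninjured libraries (of log2 CPM plus 0.5) for genes of 3 lists; columns U1 to U3 are uninjured and D1 and D2 day 3 replicates, and colours end at -2 and 2. Most cholesterol synthesis and unfolded protein response genes are blue in both day 3 columns, while adipocyte identity genes are paler and mixed.

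The median of fibrillar matrix genes was raised in day 3 replicate 2 and not in replicate 1. Of 28 genes of the fibrillar matrix and its assembly, 6 lay above and 1 below the uninjured range. The shares of all genes were 16.9% above and 17.2% below, so the count above was near the background. The median of 0.63 combined -0.17 in replicate 1 with 1.16 in replicate 2. Col1a1, a chain of type I collagen, was at 107, 151 and 131 CPM in uninjured, 329 and 736 CPM in day 3 and 2312, 2919 and 1360 CPM in day 7 libraries. Its 3 groups did not overlap, in rising order of mean (day 3 log2 difference 2.04 ± 0.41, edgeR adjusted p = 0.152, DESeq2 adjusted p = 0.000141). Col1a2, the partner chain, was at 137 to 231 CPM and then 358 and 925 CPM. Col3a1 split across the uninjured range of 727 to 860 CPM, with 592 CPM in replicate 1 and 2406 CPM in replicate 2. Fn1, fibronectin, was at 14.5 to 23.3 CPM and then 35.4 and 111 CPM (2.05 ± 0.50, edgeR adjusted p = 0.187). Serpinh1, the collagen chaperone, was the member below the range, at 391 to 458 CPM and then 217 and 289 CPM. Sparc, a collagen-binding protein, was at 2438 to 3112 CPM and then 1463 and 2503 CPM. Of 13 basement membrane genes, 3 lay above and 4 below. Lamc1 and Lamb1, laminin chains, had log2 differences of -0.78 and -0.67, and Sparcl1 one of 1.55.

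Among 22 matrix proteases and their inhibitors, 9 lay above and 1 below the uninjured range, beside 16.9% and 17.2% of all genes. Their median was 0.74. Timp1, an inhibitor of metalloproteinases, was at 0.488, 8.39 and 0.433 CPM in uninjured and 20.8 and 31.9 CPM in day 3 libraries (2.93 ± 0.88, edgeR adjusted p = 0.236). Timp4, not in that list, was lower in the same libraries, as given above. Mmp3, stromelysin 1, was at 1.71 to 5.14 CPM and then 11.5 and 16.8 CPM, and DESeq2 called it (adjusted p = 0.00195). Mmp13, a collagenase, had 0 reads in all uninjured and day 3 libraries and 4.43 to 9.40 CPM at day 7. A count of 0 allows up to 0.565 CPM before normalization in the shallowest of those libraries. Of 17 contractile and myofibroblast genes, 9 lay above and 1 below, with a median of 0.97. Acta2, smooth muscle actin, was at 8.38 to 19.2 CPM and then 117 and 36.6 CPM (2.41 ± 0.58, edgeR adjusted p = 0.186). Cnn1, calponin 1 of smooth muscle, was at 2.44 to 3.47 CPM and then 28.4 and 6.63 CPM, so both were higher in replicate 1, the reverse of Col1a1. Of the abundant members, Tpm2 lay below the range, with a log2 difference of -0.88, and Tpm1 and Vim overlapped it, at -0.83 and -0.79.

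The PDGF pathway as a list did not depart far from the background, and its receptors stood at low levels. Of 22 genes 5 lay above and 4 below the uninjured range, close to the 16.9% and 17.2% of all genes, none passed edgeR or DESeq2, and the median was -0.19. Pdgfra, the receptor typical of fibroblasts and progenitors, was at 7.07, 11.1 and 4.48 CPM in uninjured and 12.1 and 27.4 CPM in day 3 libraries (1.38 ± 0.52, edgeR adjusted p = 0.310). Pdgfrb, the receptor of mural cells, was at 3.05 to 8.21 CPM and then 10.7 and 21.8 CPM (1.40 ± 0.54, adjusted p = 0.319). Both receptors were about as far above uninjured at day 3, and by day 7 Pdgfrb was at 12.1 to 41.5 CPM. Of the ligands, Pdgfb was at 1.16 to 3.17 CPM and then 4.32 and 6.31 CPM, and Pdgfa overlapped at 17.8 to 27.4 CPM and 31.5 and 17.2 CPM. Downstream, Pik3ca, a PI3-kinase subunit, lay below the range with a log2 difference of -0.65. Of 20 TGF-beta genes, 4 lay above and 5 below, counts also near the background, with a median of -0.29. DESeq2 called 3 of them higher and 0 lower, beside 1.86% and 0.604% of all genes to which it gave an adjusted p. The receptors Tgfbr1, Tgfbr2 and Tgfbr3 and the mediator Smad4 were below the range, with log2 differences of -0.61, -0.79, -0.40 and -0.79. The target Ccn2 was above it, at 2.69 to 3.90 CPM and then 32.1 and 9.19 CPM. Of 20 fibroblast and progenitor markers, 5 lay above and 3 below, counts again near the background. Their median was nevertheless 0.52, with 0.19 and 0.57 in the replicates, and DESeq2 called 2 higher and 0 lower. Cd9, a tetraspanin, was at 24.8 to 33.4 CPM and then 123 and 55.0 CPM, Ly6a (SCA-1) and Cd34 overlapped, and Twist1, a helix-loop-helix factor, was at 121 to 153 CPM and then 62.5 and 85.3 CPM.

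**Figure D3:**
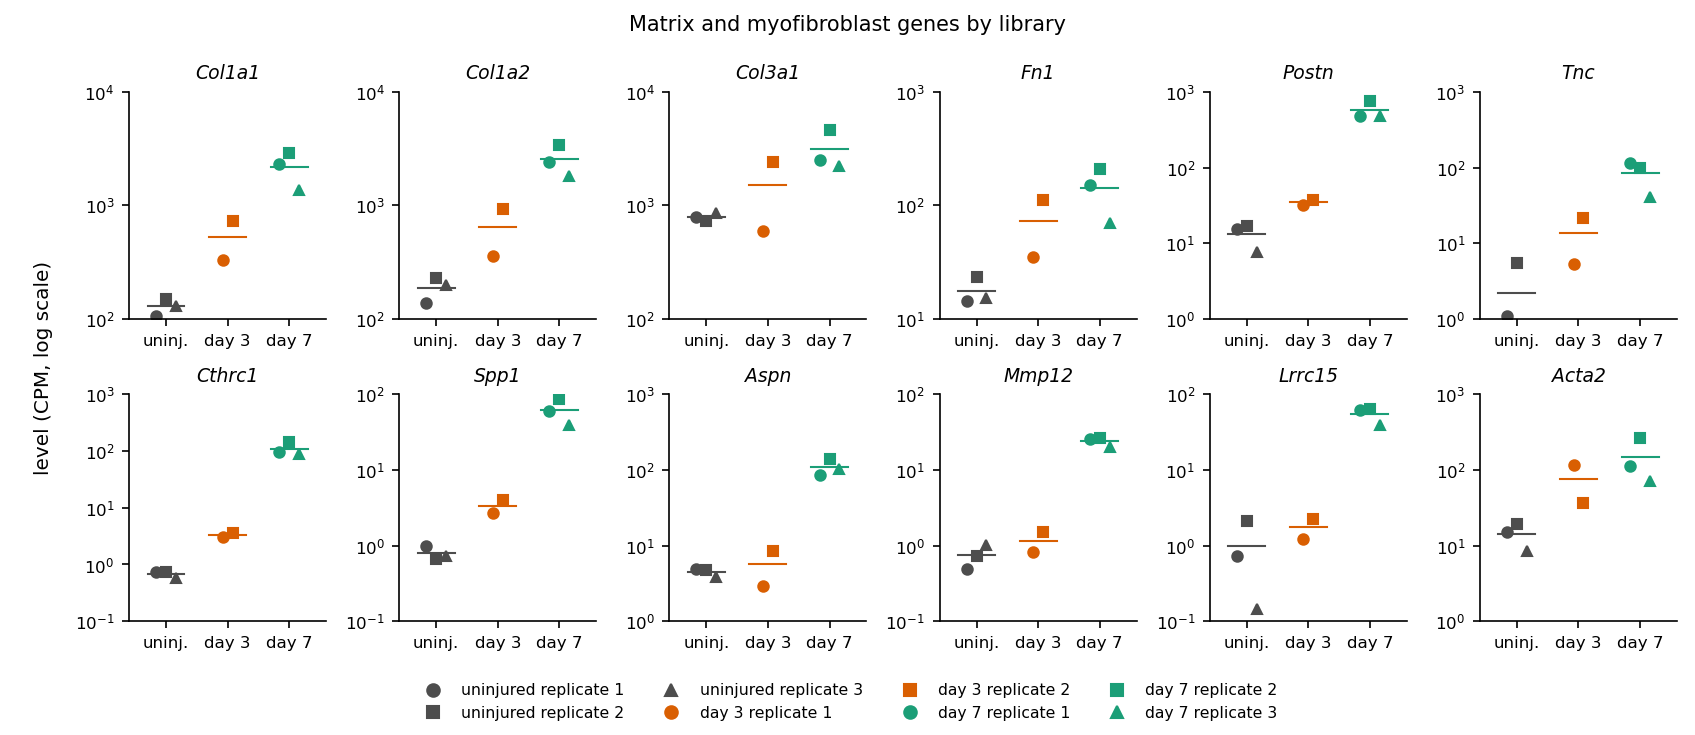
Levels (CPM, log axis) of 12 matrix and myofibroblast genes in each library, grouped as uninjured, day 3 and day 7; points are libraries, their shape the replicate, and bars are group means (Tnc in uninjured replicate 3 is at 0 and not drawn). Col1a1, Col1a2, Fn1 and Postn lie between uninjured and day 7 means at day 3, while Aspn, Mmp12 and Lrrc15 overlap the uninjured range at day 3 and are far above it at day 7.

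Inflammatory genes differed in how evenly the day 3 libraries held them. Of 18 chemokines tested, 5 lay above and 0 below the uninjured range, beside 16.9% and 17.2% of all genes. Their median was 1.58 (0.74 and 1.39 in the replicates). Cxcl16, a membrane-bound scavenger chemokine, was at 7.44 to 14.6 CPM and then 46.7 and 26.8 CPM (1.77 ± 0.35, edgeR adjusted p = 0.152). Ccl8, which draws monocytes, was at 22.0, 78.7 and 19.4 CPM and then 53.3 and 459 CPM, within the uninjured range in replicate 1. The neutrophil chemokines Cxcl1, Cxcl2 and Cxcl5 stayed at or under 2.03 CPM in every uninjured and day 3 library. Of the early cytokines, Tnf was at 0 to 0.245 CPM and then 1.03 and 1.18 CPM. Il1b was at 0 to 0.244 CPM and then 0 and 5.02 CPM, and Il6 had too few reads to be tested. Of 20 cytokines and receptors in all, 2 lay above and 1 below. Tnfrsf1a, the main receptor of TNF, was the member below, at 213 to 233 CPM and then 124 and 166 CPM. Nfkbia, the NF-kappaB inhibitor that NF-kappaB itself induces, was at 115 to 189 CPM and then 198 and 280.4 CPM, and 5 of 16 genes of that response lay above the range. Of 21 interferon-response genes, 9 lay above and 1 below, with medians of 0.51 and 0.67 in the replicates; Ifit1 was at 1.34 to 2.02 CPM and then 5.14 and 5.35 CPM.

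The median of macrophage transcripts was higher in both day 3 libraries, and their summed level in replicate 2 only. Of 20 markers, 9 lay above and 0 below the uninjured range, beside 16.9% and 17.2% of all genes. None passed edgeR. DESeq2 called 10 higher, beside 1.86% of all genes to which it gave an adjusted p. The median of 1.83 was made of 0.64 in replicate 1 and 2.48 in replicate 2. Their summed level was 199 to 430 CPM in uninjured libraries, 381 CPM in day 3 replicate 1 and 1388 CPM in replicate 2. Only replicate 2 was thus above the uninjured sums. Csf1r, the macrophage growth factor receptor, was at 9.88 to 15.1 CPM and then 9.25 and 69.7 CPM. C1qb, a chain of complement C1q, was at 21.5, 31.0 and 13.3 CPM and then 31.7 and 188 CPM. Cd14, the lipopolysaccharide co-receptor, was even, at 8.54 to 14.4 CPM and then 26.7 and 21.1 CPM. Among 11 neutrophil genes, 3 lay above and 1 below, beside the same 16.9% and 17.2% of all genes. S100a9, a calprotectin subunit, was at 1.71, 2.20 and 0.578 CPM and then 9.05 and 22.5 CPM (3.33 ± 0.55, edgeR adjusted p = 0.115, DESeq2 adjusted p = 3.94e-06). Its partner S100a8 did not follow, at 32.2 to 101 CPM and then 32.3 and 63.8 CPM, and the granule genes Mpo and Mmp8 stayed at or under 1.28 CPM. Macrophage transcripts ran higher in the library in which matrix genes were higher as well, and the part of macrophage RNA in any other result was not tested.

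Most endothelial markers lay above the uninjured range in both day 3 libraries. Of 15 markers, 10 lay above and 0 below the uninjured range, beside 16.9% and 17.2% of all genes. None passed edgeR. DESeq2 called 5 higher, beside 1.86% of all genes to which it gave an adjusted p. The median was 1.41 (1.27 and 1.75 in the replicates). Their summed level was 95.1 to 196 CPM in uninjured and 285 and 331 CPM in day 3 libraries. Log2 differences in the list ran from -1.40 to 2.17. Cdh5, the junction protein VE-cadherin, had a fitted log2 difference of -1.24. It was at 2.07, 74.7 and 3.03 CPM in uninjured and 10.5 and 12.4 CPM in day 3 libraries. Against the uninjured mean of log2 levels, its day 3 log2 ratios were 0.32 and 0.55. Its single high value makes up 74.7 of the 196 CPM summed in uninjured replicate 2. Egfl7, a protein secreted by vessels, was at 8.52 to 14.1 CPM and then 34.5 and 65.6 CPM (2.10 ± 0.53, edgeR adjusted p = 0.190). Pecam1, the adhesion molecule CD31, was at 42.6, 59.7 and 50.8 CPM and then 133 and 111 CPM. Gpihbp1, given above, was higher in the same libraries. The lymphatic factor Prox1 stayed at or under 1.10 CPM in all of these libraries. Red-cell transcripts were up as well, with 4 of 5 genes above the range. Hba-a1, an alpha globin whose near-identical copy makes its count uncertain, was at 25.4 to 57.8 CPM and then 131 and 190.4 CPM.

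Luminal epithelial transcripts separated the day 3 libraries by the largest gap in medians of the 48 lists. Of 22 markers tested, 15 lay above and 1 below the uninjured range, beside 16.9% and 17.2% of all genes. DESeq2 called 14 higher, beside 1.86% of all genes to which it gave an adjusted p. The median of 3.54 combined 4.40 in replicate 1 with 0.75 in replicate 2. The summed level was 145 to 239 CPM in uninjured libraries, 2399 CPM in day 3 replicate 1, 271 CPM in replicate 2 and 1030 to 1964 CPM at day 7. Krt8, a keratin of simple epithelia, was at 0.433 to 0.674 CPM in uninjured, 329 CPM in replicate 1 and 0.641 CPM in replicate 2. Krt18, its partner, was at 572 and 5.13 CPM in the day 3 replicates, and Krt19 at 362 and 4.28 CPM. The casein gene Csn3 had 0 reads in uninjured libraries and 26.1 and 0.428 CPM at day 3, and Elf5, a factor of mammary alveoli, had 0 reads in both day 3 libraries. The genes furthest apart between the day 3 libraries included Krt8, Krt18, Krt19, Foxa1, Ltf, Wfdc2, Slc44a4, Asic2 and Pcp4, all higher in replicate 1. Mup7 was the exception among these 10, at 4.32 CPM in replicate 1 and 223 CPM in replicate 2, and its near-identical relatives make that count uncertain. Epidermal keratins ran the other way, with Krt14 at 328 and 1106 CPM and Krt10 at 382 and 1846 CPM. The part of epithelial RNA in results other than these was not tested.

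**Figure D4:**
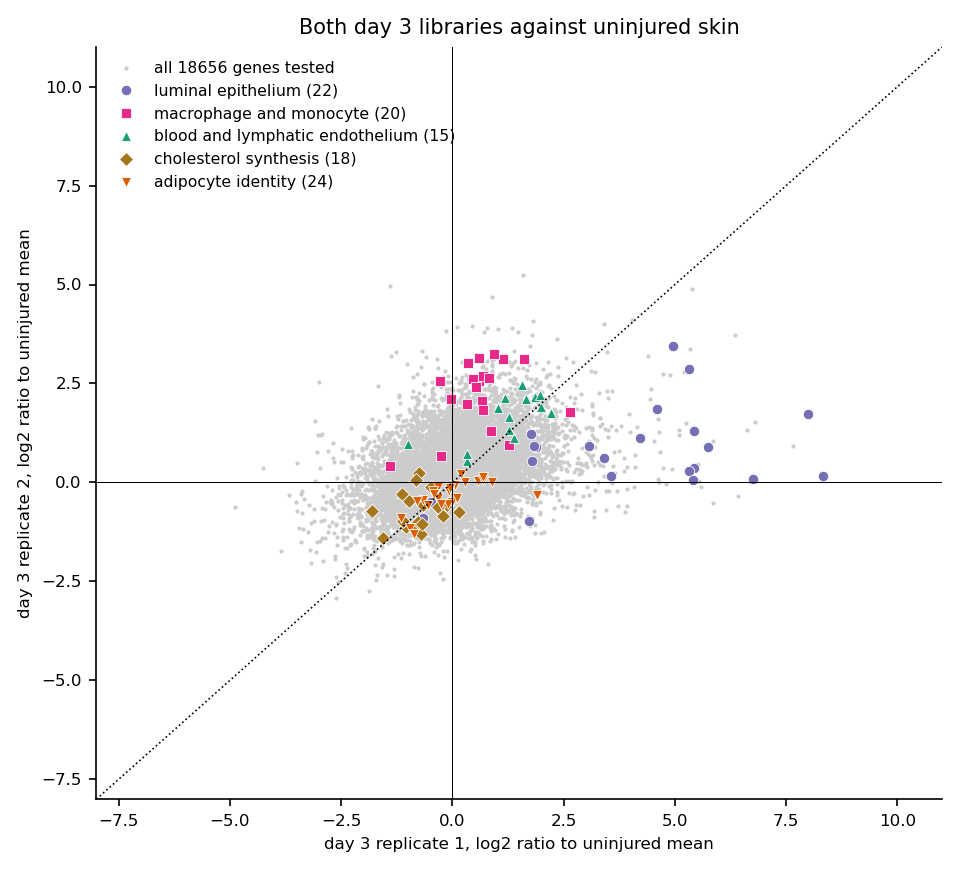
Log2 ratio of day 3 replicate 1 (horizontal) and replicate 2 (vertical) to the uninjured mean, for all 18656 genes tested (grey) and the tested members of 5 lists; the dotted line marks equal ratios. Luminal epithelial genes lie far to the right near the horizontal axis, macrophage genes have a higher median in replicate 2 (2.48) than in replicate 1 (0.64), and cholesterol synthesis genes have close medians (-0.73 and -0.76).

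Skeletal muscle transcripts were lower, more so in day 3 replicate 1. Of 18 markers, 7 lay below and 0 above the uninjured range, beside 17.2% and 16.9% of all genes. Their median was -0.75 (-1.07 and -0.40 in the replicates). Their summed level was 5822 to 11968 CPM in uninjured and 3539.7 and 5966 CPM in day 3 libraries, so the sums touched the uninjured range. Acta1, skeletal actin, was at 3507, 1830.2 and 1458 CPM and then 646 and 1357 CPM, and Tnnt3, troponin T, overlapped at 1102 to 2410 CPM and 798 and 1266 CPM. Mb, myoglobin, was among the genes with the most even drop in level, at 210, 111 and 84.5 CPM and then 20.8 and 21.5 CPM (-2.68 ± 0.48, edgeR adjusted p = 0.119, chosen after its values were seen). Myf6, a muscle regulatory factor, was at 29.0 to 51.5 CPM and then 5.14 and 16.1 CPM. Several genes named above, among them Tpm1, Tpm2 and Rrad, are made by muscle too, and the part of muscle RNA in their levels was not tested.

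**Figure D5:**
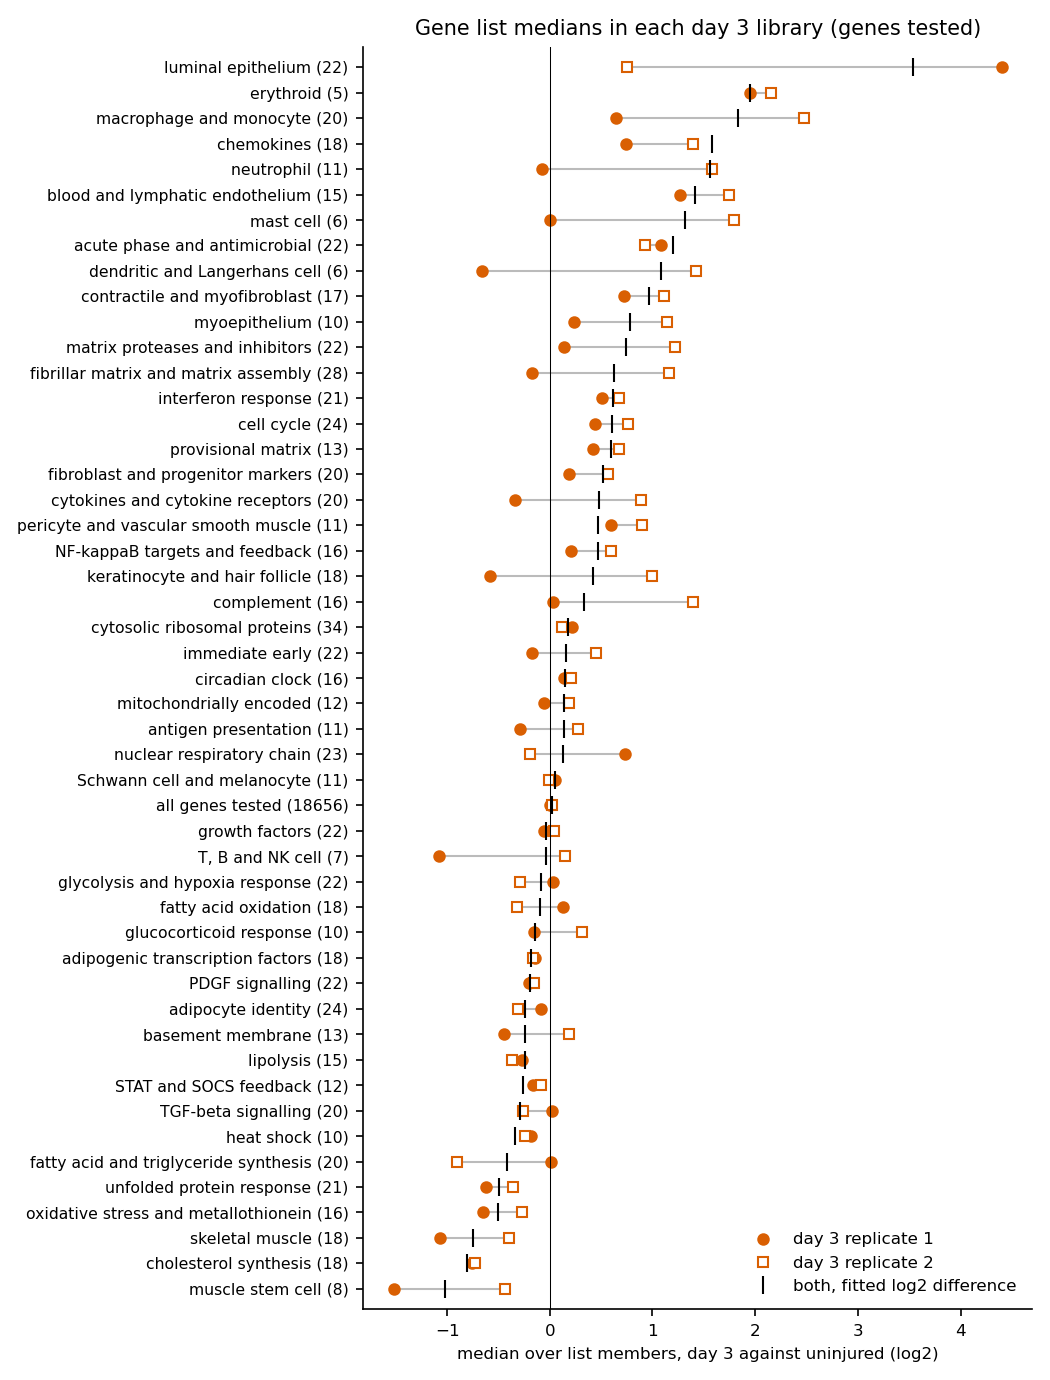
Median over the tested members of each gene list (number in brackets) of the log2 ratio to the uninjured mean in day 3 replicate 1 (filled) and replicate 2 (open), with the median fitted log2 difference as a tick. All genes tested sit at 0.02; luminal epithelium spans 4.40 to 0.75, while cholesterol synthesis sits at -0.76 and -0.73.

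Clock genes as a list stayed near the background. Of 16 tested, 5 lay above and 4 below the uninjured range, close to the 16.9% and 17.2% of all genes, with a median of 0.15, and single members are given as values. Per3, a period repressor, was at 5.73, 6.31 and 10.1 CPM in uninjured and 23.4 and 35.4 CPM in day 3 libraries (2.01 ± 0.34, edgeR adjusted p = 0.115, DESeq2 adjusted p = 0.000134). Dbp, an output factor of the clock, was at 24.1 to 56.0 CPM and then 81.4 and 89.9 CPM. Npas2 and Cry1 were below the range, Npas2 at 3.47 to 5.73 CPM and then 1.65 and 0.535 CPM. The hour at which skin was taken is not given in the sources used here. Of 10 glucocorticoid-response genes, 4 lay above and 4 below: Per1 and Errfi1 were higher and Fkbp5 and Klf9 lower, so the list had no common direction. Fos, an immediate early gene, was at 9.03, 2.20 and 7.37 CPM and then 36.4 and 19.4 CPM (2.19 ± 0.57, edgeR adjusted p = 0.190), but of 22 such genes only 3 lay above the range and 1 below.

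Cell-cycle genes stayed at low levels. Of 24 tested, 9 lay above and 0 below the uninjured range, beside 16.9% and 17.2% of all genes. Their median was 0.61, and none passed edgeR or DESeq2. Mki67, the proliferation antigen Ki-67, overlapped at 1.88 to 4.78 CPM and 3.08 and 7.16 CPM, and reached 2.28 to 33.7 CPM at day 7. Cdk1, the mitotic kinase, was at 0.722 to 2.57 CPM and then 4.11 and 4.92 CPM. Of 22 genes of glycolysis and the hypoxia response, 2 lay above and 4 below, the count below being near the background. Egln3, an oxygen-sensing hydroxylase that hypoxia induces, was at 27.2 to 40.9 CPM and then 12.1 and 11.4 CPM (-1.43 ± 0.31, edgeR adjusted p = 0.167), while Vegfa and Slc2a1 overlapped, with log2 differences of 0.20 and 0.26.

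The ribosomal protein that carries the tag stood out from its family. Rpl10a, the gene of L10a, was at 287, 261 and 323 CPM in uninjured and 99.3 and 139.8 CPM in day 3 libraries, and at 115 to 195 CPM on day 7. No wound library reached the lowest uninjured one (day 3 log2 difference -1.28 ± 0.31, edgeR adjusted p = 0.181, DESeq2 adjusted p = 0.00972). Of 34 cytosolic ribosomal protein genes, Rpl10a was the 1 below the uninjured range, 7 lay above it, and the median was 0.18. Rpl4, an abundant member, was at 418 to 531 CPM in uninjured and 419 and 474 CPM in day 3 libraries. Whether reads from the tagged transgene were counted under Rpl10a was not tested. Rpl10a was looked at after its values were seen.

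The genes that passed the test between day 3 and day 7 included secreted matrix proteins such as Postn and Aspn. Of 16 genes that passed, 12 were higher (0.0643% of genes tested) and 4 lower (0.0214%) at day 7 by edgeR. Cthrc1, a secreted protein of activated fibroblasts, was at 0.578 to 0.735 CPM in uninjured, 3.08 and 3.53 CPM in day 3 and 97.0, 141 and 88.4 CPM in day 7 libraries (day 7 minus day 3, 5.02 ± 0.34, edgeR adjusted p = 0.000197). Postn, periostin of healing tissue, was at 7.65 to 16.7 CPM, then 32.5 and 37.3 CPM, then 478 to 749.6 CPM (adjusted p = 0.00499). Spp1, osteopontin, was at 0.674 to 0.976 CPM, then 2.67 and 3.96 CPM, then 39.5 to 85.4 CPM (adjusted p = 0.00499). These 3 were already above the uninjured range at day 3, and the larger step came afterwards. Aspn, asporin, and Mmp12, macrophage elastase, had day 3 values that overlapped uninjured ones. Lower at day 7 than at day 3 were Prtn3, Mybpc2, Sh2d4b and Ampd3. Ampd3, an AMP deaminase, was at 12.1 to 14.1 CPM in uninjured, 27.6 and 23.5 CPM in day 3 and 5.75 to 7.70 CPM in day 7 libraries, with day 3 the highest group. Prtn3, proteinase 3, was at 289 to 520.4 CPM in uninjured, 377 and 892 CPM in day 3 and 43.0 to 91.9 CPM in day 7 libraries. This contrast uses the same day 3 libraries as the comparison with uninjured skin.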

How the data were processed

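The authors deposited raw read counts per gene for 8 libraries, made with featureCounts 2.0.8 per the file headers. Per the submitters' processing notes, reads were handled with STAR 2.7.10b, DESeq2 and the build mm10. Whether counting used strand is not given in the sources used here. Reads of genes that overlap, lie antisense or have close copies may therefore be shared. Symbols from the GRCm38 gene names were found for 52093 of 53700 identifiers. Only 1543 of 52147 identifiers had the same start in that annotation, so the build of the table's coordinates is not settled. edgeR's expression filter, with 10 as its minimum count, left 18656 genes. A model with 1 mean per group over all 8 libraries (5 residual degrees of freedom, TMM) was tested with edgeR 4.0.16 in R 4.3.3, two-sided, Benjamini-Hochberg at 0.05. limma 3.58.1 and DESeq2 1.42.0 gave alternatives. Single-library ratios use log2 CPM plus 0.5. The procedure was tested on simulated data. Depth was 5308959 to 17751689 counts, and 3 reads equal 0.169 to 0.565 CPM before normalization.

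The members, the 48 gene lists and the rules were chosen with earlier results of these data known. Genes were named by rule: the 15 largest rises and falls among calls at 20 CPM or more without overlap, a set of genes fixed by name, up to 6 called or 3 most abundant members per list, the 10 genes furthest apart between the day 3 libraries, and the 10 smallest adjusted p-values. Other genes were chosen after their values were seen. The main model did not pair libraries by replicate number. Some list members are counted but not reported here by name.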

Additional observations from a re-analysis of the deposited data

Results flagged for a closer look

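In the test of day 7 against day 3, which uses the day 3 libraries again, 16 genes differed by edgeR's quasi-likelihood test. Values are log2 differences, day 7 minus day 3, with SE and edgeR adjusted p. Among fibroblast and matrix genes, Cthrc1 differed by 5.02 ± 0.34 (adjusted p = 0.000197), Postn by 4.03 ± 0.41 (0.00499) and Aspn by 4.18 ± 0.44 (0.00547). Lrrc15, a surface protein of activated fibroblasts, differed by 4.91 ± 0.66 (0.0278) and Mfap4, a microfibril protein, by 3.27 ± 0.44 (0.0278). Lrrc17 differed by 4.13 ± 0.50 (0.0129), and Prss35, a serine-protease-like gene, by 6.30 ± 0.72 (0.00868) from 0 and 0.535 CPM at day 3. Spp1 differed by 4.17 ± 0.41 (0.00499) and Mmp12 by 4.29 ± 0.46 (0.00576). The C1q- and TNF-related genes C1qtnf3 and C1qtnf2 differed by 4.93 ± 0.71 and 4.36 ± 0.64 (both 0.0355), and Tmem119 by 3.12 ± 0.47 (0.0415). Lower at day 7 were Prtn3 at -3.14 ± 0.44 (0.0313), Ampd3 at -1.94 ± 0.28 (0.0355), the fast-muscle gene Mybpc2 at -2.67 ± 0.38 (0.0355) and Sh2d4b at -2.63 ± 0.39 (0.0355). Every day 7 library lay beyond both day 3 libraries for each of these 16 genes. Skeletal muscle markers summed to 3539.7 and 5966 CPM at day 3 and 1076 to 2097 CPM at day 7, and their part in the level of Mybpc2 was not tested.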

How the results depend on the processing

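The count of calls at day 3 depended on the setting. Higher and lower calls were 2 and 0, and became 0 and 0 with library totals only, a minimum count of 30, limma voom with quality weights, robust edgeR or the 5 libraries alone. They became 696 and 230 without a low count filter and 326 and 106 with DESeq2. Gpihbp1 and Slc5a5 each lost the call in 10 of 18 alternatives and kept it with DESeq2 and with RLE or upper-quartile scaling. Leaving out 1 library gave 0 to 129 higher and 0 to 21 lower. At day 7 against day 3, 12 and 4 became 7 and 0 with library totals only, 369 and 203 without a filter, 147 and 79 with DESeq2 and 66 and 40 with voom. Lower calls there were 8 with RLE, 11 with upper-quartile scaling and 8 with robust edgeR, and leaving out 1 library gave 4 to 23 higher and 0 to 12 lower. The cause was not tested. No named gene's call reversed. Upper-quartile scaling moved the median log2 difference of all genes from 0.02 to 0.13. With a replicate block, day 3 calls became 5 and 2 and day 7 against day 3 calls 95 and 31. Deviations from the group mean were correlated between libraries. For same-numbered day 3 libraries the values were -0.074 and 0.069 with uninjured and -0.069 and 0.116 with day 7 ones. Same-numbered uninjured and day 7 libraries gave -0.057, 0.061 and 0.203, and different-numbered ones -0.225 to 0.207. With 2 day 3 libraries the deviations mirror each other, so the day 3 values cannot show whether the numbers pair samples. With 2 libraries at day 3, the shallowest of 5308959 counts, genes at a few CPM are known with least precision.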
